A study of Mus musculus with 8 samples.

Results

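The early response genes Ier2, Ier3, Ier5, Cd69, Plk2, Zfp36, Zfp36l1, Zfp36l2, Gadd45a and Gadd45b were followed in CD8+ T cells with and without the transcription factor gene Elf4. Every probe set annotated to 1 of these 10 genes alone was taken, which gave 18 of the 45101 probe sets of the arrays, for 10 of 18193 named genes. Of the 18, 16 passed the filter on dim probe sets and were tested, so each of the 10 genes had at least 1 tested probe set. A probe set is a group of short oligonucleotides read together as 1 value, and its level is given in MAS5 intensity units on a linear scale.

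The study addressed how ELF4, a member of the ETS family of transcription factors, acts on CD8+ T cell proliferation. The cells were purified from spleens of wild-type C57BL/6 mice or of Elf4-/- mice. Naive cells received no treatment, and activated cells spent 3.5 days on plates coated with anti-CD3, with anti-CD28 in a medium of RPMI, 10% FBS and 5% T-stim. Each of the 4 groups (wild-type naive, Elf4-/- naive, wild-type activated and Elf4-/- activated) had 2 arrays. Separate animals or cultures are not named for these arrays, so a p-value here refers to array-to-array spread that could be technical. C57BL/6 is given as the strain of the wild-type arrays, while for the Elf4-/- arrays the labels name the knockout and no background strain.

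Immediate early and early response genes need no new protein synthesis for their first transcription after a stimulus, and many of their mRNAs are short-lived. In T cells they are known for a fast rise after antigen receptor signalling and for later decline, through serum response factor, CREB, NF-kB and stress kinase pathways. The ZFP36 proteins close this loop after transcription: they bind AU-rich elements of mRNAs, many of them for cytokines, and recruit the deadenylation machinery.

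RefSeq promoter windows of 300 bases (assembly GRCm38.p6) were at hand for 7 of the 10 genes, namely Ier3, Ier5, Plk2, Zfp36, Zfp36l1, Gadd45a and Gadd45b. Ier2, Cd69 and Zfp36l2 were not matched. The 120 bases before the start site are printed for Zfp36 and Plk2, the members with the largest log2 changes between states, for Ier3, the only member called between genotypes in activated cells, and for Ier5, which held 3 motif matches. Capitals mark matches, on either strand, to the ETS core CCGGAAG, the cyclic AMP response element TGACGTCA, the GC box GGGCGG, the TATAA motif or the CArG box, the element that serum response factor binds.
Zfp36, chr7:28379229-28379348, minus strand: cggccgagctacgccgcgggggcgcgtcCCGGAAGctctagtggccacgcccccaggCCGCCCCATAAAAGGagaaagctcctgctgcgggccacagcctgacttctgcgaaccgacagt
Plk2, chr13:110394924-110395043, plus strand: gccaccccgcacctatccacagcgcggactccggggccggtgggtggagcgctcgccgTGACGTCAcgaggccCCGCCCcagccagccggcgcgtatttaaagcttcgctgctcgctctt
Ier3, chr17:35821593-35821712, plus strand: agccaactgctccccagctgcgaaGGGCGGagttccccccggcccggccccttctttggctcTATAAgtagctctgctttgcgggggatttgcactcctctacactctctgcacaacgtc
Ier5, chr1:155099637-155099756, minus strand: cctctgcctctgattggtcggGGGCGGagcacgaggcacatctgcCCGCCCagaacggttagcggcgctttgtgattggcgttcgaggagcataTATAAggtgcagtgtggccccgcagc

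In the Zfp36 window the ETS core began at -92 from the start site, a GC box on the reverse strand at -63 and the CArG box at -58, the last sharing 1 base with the GC box. In the Plk2 window the cyclic AMP response element began at -62, followed by a GC box at -47. Over all 7 windows, the CArG box and the ETS core each occurred in 1 (Zfp36) and the cyclic AMP response element in 1 (Plk2), while 6 held a GC box and 4 held TATAA. Of 32851 RefSeq windows of the same length, 1.63% held a CArG box, 1.79% the cyclic AMP response element, 8.86% the ETS core, 35.7% a GC box and 24.9% TATAA. A match describes the letters of the window and shows no binding.

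**Figure D1:**
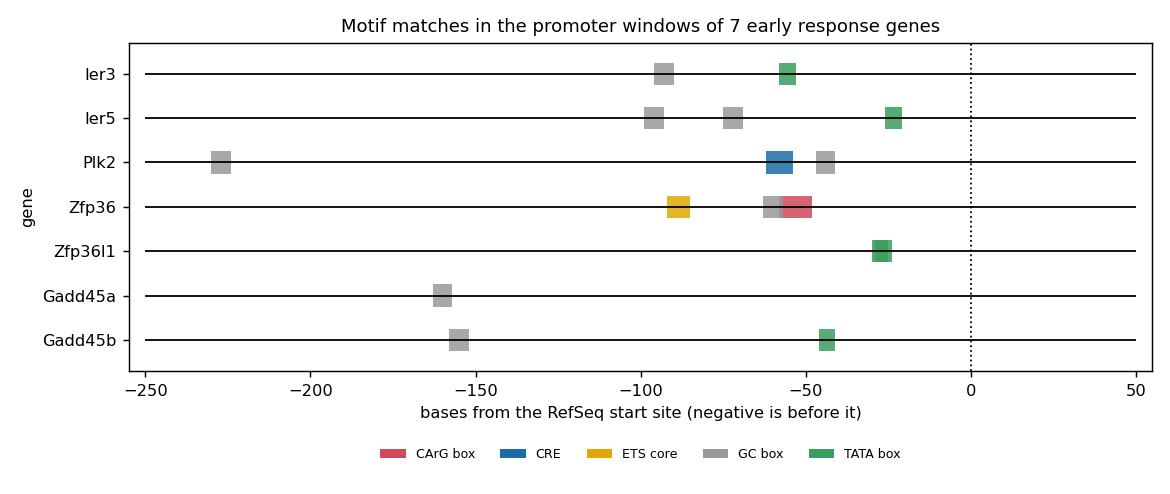
Positions of motif matches in the 300-base RefSeq windows of 7 early response genes, in bases from the start site (dotted line); each block is 1 match on either strand, coloured by motif. Zfp36 alone has an ETS core (from -92) and a CArG box (from -58), Plk2 alone a cyclic AMP response element (from -62), and 6 of the 7 windows have a GC box.

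The brightest Elf4 probe set read 116 and 199 in wild-type naive cells, 165 and 192 in Elf4-/- naive cells, 83.6 and 134 in wild-type activated cells and 76.2 and 80.6 in Elf4-/- activated cells. It is not stated which part of the gene was deleted, so these levels do not check the labels. Cd8a was at 14240 to 17150 in naive and 4288 to 6290 in activated cells. None of the 7 measured CD8 T cell markers lay below the array median throughout a group. The same held in naive cells for the 14 measured B cell markers. Among these, Ighm was at 25469 and 23957 in wild-type and 18632 and 18897 in Elf4-/- naive cells. These levels show that CD8 T cell transcripts were present and do not show how pure the samples were. Array medians lay between 64.1 and 86.2. Xist, the transcript that silences an X chromosome in females, ranged over 60.3 to 172 in naive and 7703 to 10011 in activated samples, and Eif2s3y, a Y-linked gene, over 2537 to 5146 and 2.93 to 44.0. The Actb 3'/5' signal ratio, which rises as RNA degrades, stood at 2.13 and 2.50 (wild type) and 1.99 and 1.96 (Elf4-/-) for naive samples. For activated samples the values were 5.98 and 5.90 (wild type) and 7.44 and 11.1 (Elf4-/-), so it did not overlap between the states or between the genotypes within a state. In every comparison of states, activation cannot be told apart from the sex of the mice, from RNA quality or from the cell types present, whose marker sums are given below.

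In naive cells, 5 early response genes were lower without Elf4: Zfp36, Zfp36l2, Ier2, Cd69 and Plk2. The differences in mean intensity ran from 1.88-fold (Zfp36l2) to 2.35-fold (Cd69), and Plk2, whose Elf4-/- naive signal was below the array medians, gave a log2 difference of -2.18. Ier3, Ier5, Zfp36l1, Gadd45a and Gadd45b did not pass the test. Of the 16 tested probe sets 5 were called lower (31.2%) and 0 higher, by limma with Benjamini-Hochberg adjustment over all probe sets at an adjusted p of 0.05. Of all 27348 probe sets tested, 0.563% were called in either direction, 0.249% lower and 0.314% higher. The median log2 difference was -0.78 over the 16 and -0.0037 over all tested. Of the 16, 12 had arrays that did not overlap between the genotypes, all 12 lower without Elf4, against 38.2% of all tested probe sets in either direction and 19.8% lower.

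Zfp36, which encodes the mRNA-destabilising protein tristetraprolin, read 7892 and 8351 on the wild-type naive arrays and 3158 and 3800 on the Elf4-/- naive arrays. Both Elf4-/- arrays lay well below both wild-type arrays. The means were 8122 ± 324 and 3479 ± 454 (SD, n = 2), a log2 difference of -1.22 (SE 0.17, adjusted p = 0.0143). Its family member Zfp36l2, known for restraining the cell cycle during lymphocyte development, was at 15567 and 16007 in wild-type and 7483 and 9292 in Elf4-/- naive cells by its brightest probe set. The groups did not overlap, with a log2 difference of -0.92 (SE 0.16, adjusted p = 0.0321). The dimmer Zfp36l2 probe sets did not pass, at -0.64 (adjusted p = 0.596) and -0.04 (adjusted p = 0.99). Zfp36l1, the third member of the family measured, was at 10294 and 7062 in wild-type and 6723 and 7358 in Elf4-/- naive cells, with overlapping groups and a log2 difference of -0.28 (95% confidence interval -0.65 to 0.09, adjusted p = 0.569).

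Ier2, which encodes a nuclear immediate early protein, was at 11765 and 14743 in wild-type and at 7283 and 6024 in Elf4-/- naive cells. Its log2 difference was -0.99 (SE 0.16, adjusted p = 0.026), or 1.99-fold lower in mean intensity. Ier3, which encodes an early response protein that modulates apoptosis, was nearly level, at 1068 and 977 against 994 and 919.7. The groups overlapped, and the log2 difference of -0.09 had a 95% confidence interval of -0.43 to 0.25. Ier5 encodes a regulator of heat shock factor activity. By its brightest probe set it was at 8416 and 5825 in wild-type and 5584 and 5082 in Elf4-/- naive cells. Its arrays did not overlap, but the log2 difference of -0.39 did not pass the test (adjusted p = 0.443), nor did that of the dimmer probe set, -0.52 (adjusted p = 0.591).

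Cd69 encodes a lectin that holds lymphocytes in tissue by drawing the sphingosine phosphate receptor S1PR1 from the surface. Its mRNA signal was at 6371 and 8565 in wild-type and 3512 and 2835 in Elf4-/- naive cells. The groups were clear of each other, with a log2 difference of -1.22 (SE 0.18, adjusted p = 0.0171) and a 2.35-fold lower mean. Plk2 encodes a polo-like kinase acting in centriole duplication. Its signal was dim in naive cells, at 120 and 251 in wild-type and 24.0 and 28.3 in Elf4-/- cells. Both Elf4-/- values lay below the medians of their arrays. The log2 difference was -2.18 (SE 0.34, adjusted p = 0.0249). No detection call was used, so the Elf4-/- signal is not shown to lie above background and no exact fold is given. The other Plk2 probe set, between 4.84 and 97.5 on the 8 arrays, was too dim to be tested.

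Gadd45a and Gadd45b, whose proteins bind cell cycle and stress kinase regulators, were lower in mean intensity without Elf4 but did not pass. Gadd45a was at 323 and 262 in wild-type and 85.1 and 195 in Elf4-/- naive cells, a log2 difference of -1.07 (SE 0.51, adjusted p = 0.437). Gadd45b was at 1337 and 3845 against 1025 and 505 by its brightest probe set and at 1017 and 2326 against 746 and 524 by the next. Neither overlapped between genotypes, but the wild-type arrays were far apart, so that log2 differences of -1.63 (SE 0.43, adjusted p = 0.162) and -1.28 (SE 0.32, adjusted p = 0.147) were not called. The third Gadd45b probe set gave -0.39 (adjusted p = 0.734).

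The plot of intensity by array shows the genes side by side.

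**Figure D2:**
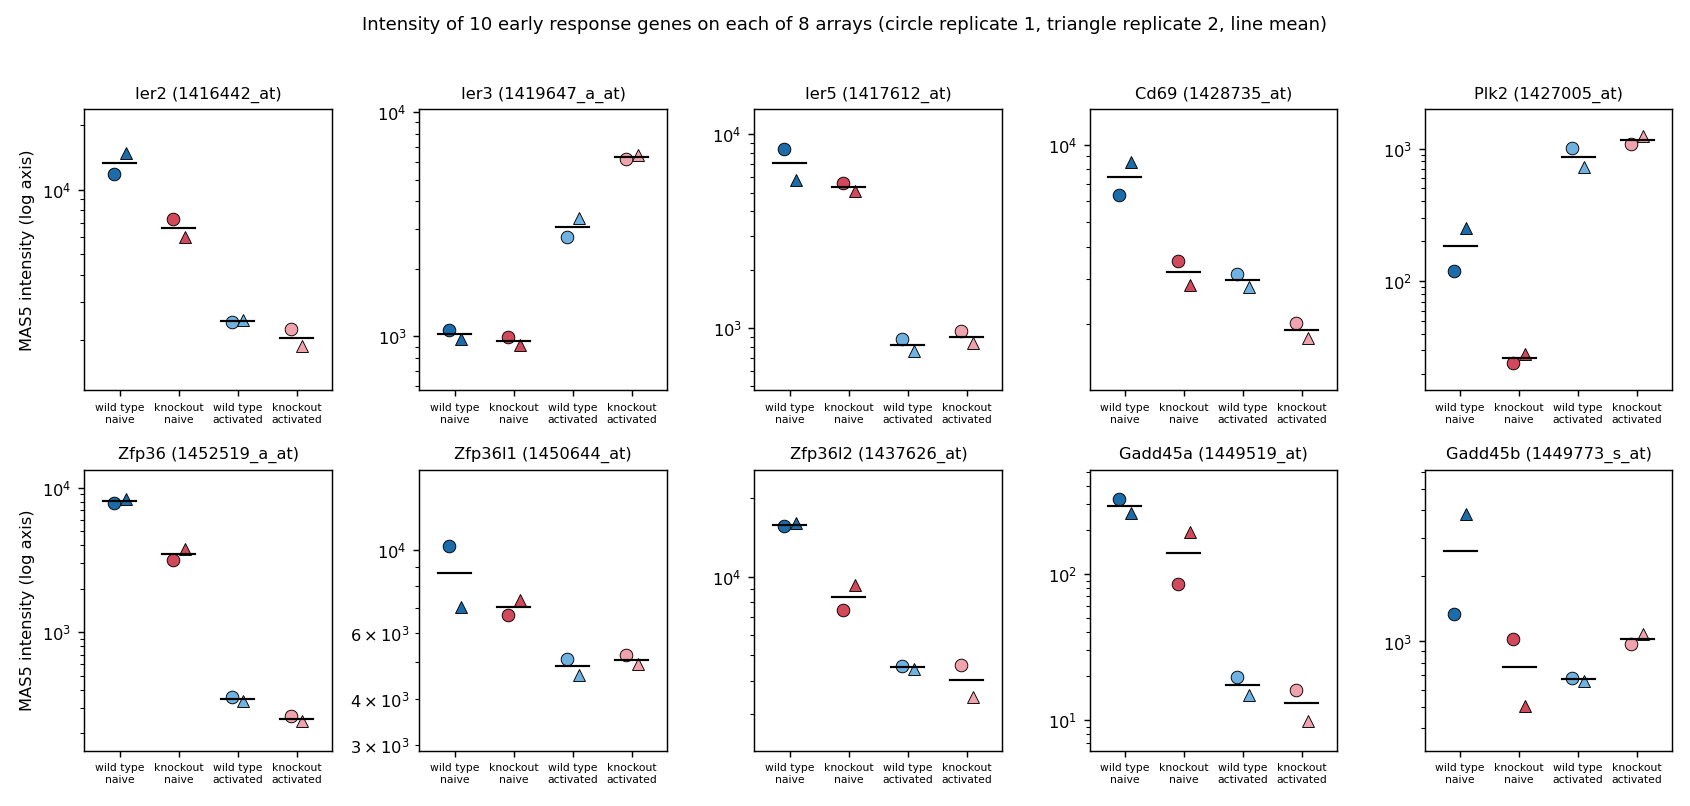
MAS5 intensity (log axes, each with its own range) of the brightest probe set of each of the 10 genes on all 8 arrays, by group; circles are replicate 1, triangles replicate 2 and lines the group means. Zfp36, Zfp36l2, Ier2, Cd69 and Plk2 are lower in Elf4-/- than in wild-type naive cells, Ier3 and Plk2 are higher in activated than in naive cells of both genotypes, and Gadd45b has wild-type naive arrays far apart (1337 and 3845).

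All 16 tested probe sets had a log2 difference below 0 in naive cells, a count that fell to 15 with quantile normalization and 14 with arrays centred on their medians. The count also fell to 14 without wild-type naive replicate 1 and to 15 without Elf4-/- naive replicate 2. After centring the median over all tested stood at 0.10 and that of the members at -0.68. The calls changed when single arrays were left out. Without replicate 2 of the Elf4-/- naive cells, Zfp36 alone was called (-1.36, adjusted p = 0.0465), while Ier2 was at -0.85 (0.142), Cd69 at -1.07 (0.1), Plk2 at -2.25 (0.0923) and Zfp36l2 at -1.08 (0.0651), the adjusted p in parentheses. Without replicate 1 of these cells, Plk2 (-2.10, 0.0531) and Zfp36l2 (-0.76, 0.0726) lost their calls. Without wild-type naive replicate 1, 6 probe sets were called: the brighter pair for Gadd45b joined (-2.39, 0.0182, and -1.87, 0.0111) and Zfp36l2 left (-0.94, 0.0697). Without wild-type naive replicate 2, Ier2 (-0.83, 0.0735) and Zfp36l2 (-0.90, 0.0761) left. Leaving out either wild-type activated array, which enters only through the shared spread, left 0 calls, with Zfp36 at an adjusted p of 0.0573 and 0.0561, and leaving out either Elf4-/- activated array left Zfp36 alone (0.0456 each). None of the 5 was called without a trend in the variance (adjusted p = 0.148 for Zfp36), with the Actb 3'/5' ratio as a covariate (0.0822) or when the activated arrays were kept out of the fit (0.147). Over all tested probe sets, the 154 calls fell to 3, 18 and 5 under these settings. With the covariate the log2 difference was -1.25 for Zfp36 and -1.98 for Plk2, and the median of the 16 was -0.98.

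Markers of other cell types also differed between the naive groups. The summed intensity of 13 granulocyte markers was 804 to 1167 in wild-type and 5168 to 21271 in Elf4-/- naive cells, and the highest value was that of replicate 2. The sums of 14 B cell markers were 30846 to 34273 and 35987 to 55134. Without the immunoglobulin gene Igha (330 and 149 in wild-type, 9201 and 16831 in Elf4-/- cells) the 13 others summed to 33943 and 30697 against 26786 and 38302, which overlap. The sums of 14 macrophage and monocyte markers were 2590 to 2882 and 4238 to 6976, and those of 6 NK cell markers 2718 to 4231 and 6389 to 9187. The NK list includes Eomes (2027 and 1225 in wild-type, 2814 and 3132 in Elf4-/- naive cells). Eomes was also at 1074 to 1727 on the activated arrays, so the NK sums are not shown to come from NK cells alone. CD4 and regulatory T cell markers (7) summed to 1209 to 1355 and 2349 to 2954, but without Ikzf2 and Gpr83 the 5 others summed to 666 and 870.1 in wild-type and 464 and 616 in Elf4-/- cells. Dendritic cell markers (7) summed to 411 to 763 and 775 to 858, and erythroid and platelet markers (7) to 706 to 808 and 471 to 481. The 7 CD8 T cell markers summed to 107252 to 114674 in wild-type and 87948 to 95526 in Elf4-/- naive cells. Of the granulocyte list, 5 markers in wild-type and 1 in Elf4-/- naive cells were below the array median throughout the group. The same counts were 7 and 2 for macrophage and monocyte, 0 and 0 for B cell and 3 and 3 for dendritic cell markers. They were 1 and 1 for NK cell, 1 and 2 for CD4 and regulatory T cell and 3 and 4 for erythroid and platelet markers. The part of these cells in the lower early response levels was not tested. In bulk RNA, fewer cells of a type and less RNA per cell cannot be told apart.

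Among activated cells, Ier3 was the only member called between the genotypes. It was at 2759 and 3362 in wild-type and at 6172 and 6421 in Elf4-/- cells, so that both Elf4-/- arrays lay far above. The means were 3060 ± 426 and 6296 ± 176 (SD, n = 2), a 2.06-fold higher level without Elf4 and a log2 difference of 1.04 (SE 0.15, adjusted p = 0.0256). This was 1 of 16 tested probe sets (6.25%), against 0.216% of all tested in either direction and 0.113% higher. The groups did not overlap for 9 of the 16, 6 higher and 3 lower without Elf4, against 47% of all tested probe sets (22.5% higher, 24.5% lower). The median of the 16 was 0.04 and that of all tested -0.02. The Ier3 call was lost when any 1 of the activated arrays was left out, with log2 differences of 0.90 (adjusted p = 0.342, without wild-type replicate 1), 1.19 (0.125, without wild-type replicate 2), 1.07 (0.241, without Elf4-/- replicate 1) and 1.02 (0.312, without Elf4-/- replicate 2). It was also lost with the replicate number as a block (adjusted p = 0.0644), with the arrays centred (0.0548), without a trend in the variance (0.25) and with the Actb covariate (0.727).

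None of the 5 genes that were lower in naive Elf4-/- cells passed limma's test in activated cells. There, 4 of the 16 probe sets, Ier3 included, had an unadjusted p under 0.05, a threshold at which the share of all tested was not counted. Zfp36 was at 355 and 336 in wild-type and 264 and 243 in Elf4-/- activated cells, which did not overlap, with a log2 difference of -0.42 (95% confidence interval -0.79 to -0.06, adjusted p = 0.397). Cd69, at 3118 and 2790 against 2014 and 1763, did not overlap either, at -0.64 (SE 0.18, adjusted p = 0.203). Plk2 was at 1005 and 720.3 against 1077 and 1234, that is 0.43 on the log2 scale (adjusted p = 0.726). Ier2 gave -0.26 (adjusted p = 0.622) and the brightest Zfp36l2 probe set -0.17 (adjusted p = 0.776). For Ier5 the probe sets parted: the bright one was level, at 879 and 761 against 965 and 837 (log2 difference 0.13, adjusted p = 0.871), whereas the dimmer one read 39.7 and 60.6 in wild-type cells, below the array medians, and 158 and 157 in Elf4-/- cells, 1.41 on the log2 scale (SE 0.33, adjusted p = 0.136). The 3 Gadd45b probe sets lay between 0.27 and 0.60, and Gadd45a was dim at 9.87 to 19.6 in all activated arrays. Sums of CD4 and regulatory T cell markers were 11759 to 13330 in wild-type and 15641 to 17212 in Elf4-/- activated cells. Most of each sum was Ctla4 (9847 and 11230 against 13321 and 12238), which rose with activation in both genotypes. Without Ikzf2 and Gpr83 the 5 others, Ctla4 included, summed to 10122.2 and 11560.6 against 13606.5 and 12513.4. Sums of CD8 T cell markers were 33521 to 35544 in wild-type and 26576 to 28727 in Elf4-/- activated cells. The Actb 3'/5' ratio was also higher in the Elf4-/- activated samples (7.44 and 11.1 against 5.98 and 5.90). The part of the cell types in the Ier3 difference was not tested, and with the ratio as a covariate the estimate was 1.04 and not called (adjusted p = 0.727).

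**Figure D3:**
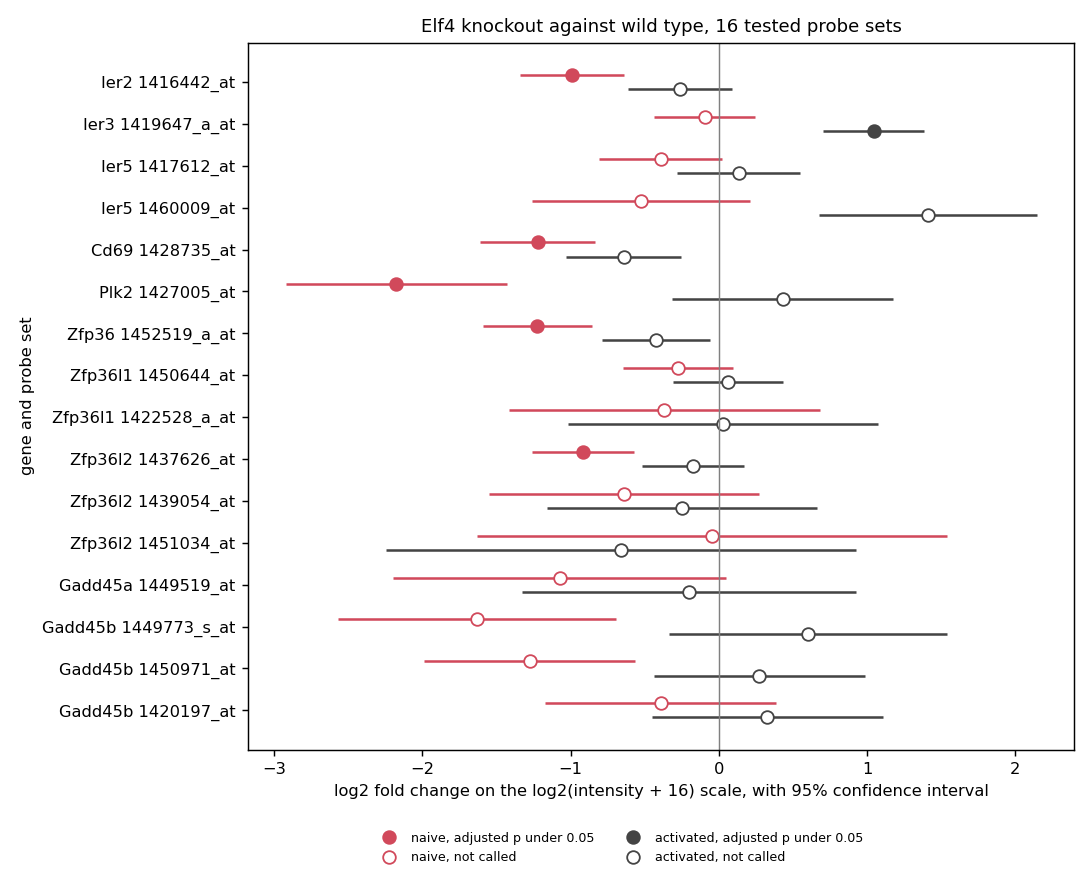
Log2 difference between Elf4-/- and wild-type cells for the 16 tested probe sets, in naive (red) and activated (grey) cells, with 95% confidence intervals from limma; filled points have an adjusted p under 0.05. In naive cells 5 points are filled, all below 0; in activated cells only Ier3 is filled, at 1.04.

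The change of the genotype effect between the states was itself tested. None of the 16 probe sets was called by limma with Benjamini-Hochberg adjustment, against 0.0585% of all tested (16 probe sets), while 9 of the 16 had an unadjusted p under 0.05. The estimate was above 0 for 15 of the 16, meaning that the level without Elf4 relative to wild type was higher in activated than in naive cells, with a median of 0.74 against -0.02 over all tested. The largest were Plk2 at 2.61 (SE 0.48, adjusted p = 0.0937), the brightest Gadd45b probe set at 2.23 (SE 0.60, adjusted p = 0.231) and the dimmer Ier5 probe set at 1.93 (SE 0.47, adjusted p = 0.188). Ier3 gave 1.14 (SE 0.22, adjusted p = 0.105), Zfp36 0.80 (SE 0.23, adjusted p = 0.272) and Cd69 0.58 (SE 0.25, adjusted p = 0.484). Without wild-type naive replicate 1, 3 were called: Plk2 (3.10, adjusted p = 0.0269) and the brighter Gadd45b probe sets (2.99, 0.0372, and 2.14, 0.0344). A genotype difference called in naive but not in activated cells is therefore not shown to differ between the states.

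Between naive and activated cells, most of the genes changed in both genotypes, and most were lower after 3.5 days. In wild-type cells 11 of 16 tested probe sets were called, 2 higher and 9 lower, against 39.2% of all tested (17.4% higher, 21.8% lower). In Elf4-/- cells 11 of 16 were called as well, 3 higher and 8 lower, against 41.7% (18.2% higher, 23.5% lower). At least 1 probe set of each of the 10 genes was called in each genotype. Gadd45a and the dimmest Zfp36l2 probe set reached the array medians on naive arrays alone, so the filter favoured their lower calls. Naive and activated arrays did not overlap for 13 of 16 in wild-type cells (2 higher, 11 lower), against 68.7% of all tested (29.4% higher, 39.3% lower), and for 13 in Elf4-/- cells (4 higher, 9 lower), against 71.5% (30.7% higher, 40.7% lower). The median was -1.52 in wild-type and -0.60 in Elf4-/- cells, against -0.15 and -0.16 over all tested. These changes and the genotype differences above share their arrays. The B cell marker sums were 30846 to 34273 in wild-type and 35987 to 55134 in Elf4-/- naive cells. In activated cells they were 5137 to 5226 and 6393 to 7777. Granulocyte sums were 804 to 1167 and 5168 to 21271 in naive, and 450 to 762 and 292 to 464 in activated cells. Dendritic cell, CD4 and regulatory T cell, and erythroid and platelet sums were higher in activated cells. The part of cell types in the changes between states was not tested.

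The decay factor gene Zfp36 had the largest fall of the 16 probe sets on the log2(intensity + 16) scale in each genotype. It went from 8122 ± 324 to 345 ± 13.3 in wild-type cells (SD, n = 2), 23.5-fold, and from 3479 ± 454 to 253 ± 14.3 in Elf4-/- cells, 13.7-fold. On the log2 scale this was -4.49 (SE 0.17, adjusted p = 3.1e-08) and -3.69 (adjusted p = 7.4e-08). Zfp36l2 fell to 4544 and 4455 in wild-type and 4597 and 3467 in Elf4-/- activated cells by its brightest probe set, log2 changes of -1.81 (SE 0.16, adjusted p = 6.33e-06) and -1.06 (adjusted p = 0.000265). Its dimmest tested probe set, at 3.30 to 38.3 on the activated arrays, was called lower in Elf4-/- cells (-2.33, adjusted p = 0.0231) but not in wild-type cells (-1.71, adjusted p = 0.0833). This probe set reached the array median on 2 arrays only, both naive, so the filter favoured a fall. Zfp36l1 fell least of the family, to 5124 and 4641 and to 5233 and 4945, with log2 changes of -0.80 (adjusted p = 0.00299) and -0.47 (adjusted p = 0.0455). The latter call did not hold with arrays centred (-0.35, adjusted p = 0.23), without the filter (0.0704) or without an offset (0.0508). All 3 members of the family were thus lower in activated cells of both genotypes by their brightest probe sets.

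The IER genes went different ways. Ier2 fell to 2432 and 2480 in wild-type and 2241 and 1868 in Elf4-/- cells, log2 changes of -2.42 (SE 0.16, adjusted p = 9.48e-07) and -1.69 (adjusted p = 1.08e-05). Ier5 fell 8.68-fold and 5.92-fold in mean intensity by its brightest probe set, -3.07 (adjusted p = 5.8e-07) and -2.55 (adjusted p = 1.94e-06). The dimmer Ier5 probe set was called lower in wild-type cells (-2.71, adjusted p = 8.16e-05) and not in Elf4-/- cells (-0.78, adjusted p = 0.0854). Ier3 rose instead, 2.99-fold in wild-type and 6.58-fold in Elf4-/- cells, with log2 changes of 1.56 (SE 0.15, adjusted p = 1.68e-05) and 2.70 (adjusted p = 3.28e-07).

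Cd69, whose protein is best known as an early surface marker of activation, was lower at 3.5 days than in naive cells. The log2 change was -1.32 in wild-type (SE 0.18, adjusted p = 0.000147) and -0.74 in Elf4-/- cells (adjusted p = 0.00606). The Elf4-/- naive arrays (3512 and 2835) and the wild-type activated arrays (3118 and 2790) overlapped. Plk2 rose from 185 ± 92.6 to 863 ± 202 in wild-type cells (SD, n = 2) and from 26.2 ± 3.03 to 1156 ± 111 in Elf4-/- cells. The log2 changes were 2.19 (SE 0.34, adjusted p = 0.000413) and 4.80 (adjusted p = 1.4e-06), the latter from a naive signal below the array medians.

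Gadd45a was lower in activated wild-type (log2 change -3.21, SE 0.51, adjusted p = 0.000497) and Elf4-/- cells (-2.34, adjusted p = 0.00358). Its signal there, 9.87 to 19.6, lay below every array median and is not shown to exceed background. The probe set passed the filter through the 4 naive arrays alone. Gadd45b depended on the probe set. The brightest was called lower in wild-type cells (-1.73, SE 0.43, adjusted p = 0.00756) and gave 0.50 in Elf4-/- cells (adjusted p = 0.383). The next gave -0.31 in wild-type cells (adjusted p = 0.489) and was called higher in Elf4-/- cells (1.24, SE 0.32, adjusted p = 0.00966). In activated cells it stood at 1281 and 1199 in wild-type and 1390 and 1617 in Elf4-/- cells. Without wild-type naive replicate 1, its change in wild-type cells was -0.90 and passed the test (adjusted p = 0.0133). The third Gadd45b probe set passed in neither genotype, at -0.19 and 0.53.

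The weaker calls in Elf4-/- cells rested on single arrays. Without Elf4-/- activated replicate 2, 7 of the 16 were called: Cd69 (-0.64, adjusted p = 0.0578), Zfp36l1 (-0.43, 0.182), the dimmest Zfp36l2 probe set (-2.29, 0.0778) and the middle Gadd45b probe set (1.13, 0.0711) left. Without Elf4-/- naive replicate 2, Zfp36l1 (-0.40, 0.163), Gadd45a (-1.81, 0.05) and the middle Gadd45b probe set (0.99, 0.0736) left. Without replicate 1 of the naive or of the activated Elf4-/- cells, Zfp36l1 (0.0731 and 0.114) and the dimmest Zfp36l2 probe set (0.195 and 0.0708) left. Zfp36l1 was also lost without either wild-type activated array (0.0714 and 0.0707). The falls of Zfp36, Ier2 and Ier5 and the rises of Ier3 and Plk2, by their brightest probe sets, kept their calls when any 1 array was left out.

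With the Actb 3'/5' ratio as a covariate, Zfp36 in wild-type cells (-4.32, adjusted p = 0.0122) was the only member still called between states. The ratio does not overlap between the states, and 484 and 0 of all probe sets were then called in wild-type and Elf4-/- cells. The estimates in Elf4-/- cells turned sign for Zfp36l1 (0.52) and Zfp36l2 (0.27) by their brightest probe sets and for the middle Gadd45b probe set (-1.10).

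**Figure D4:**
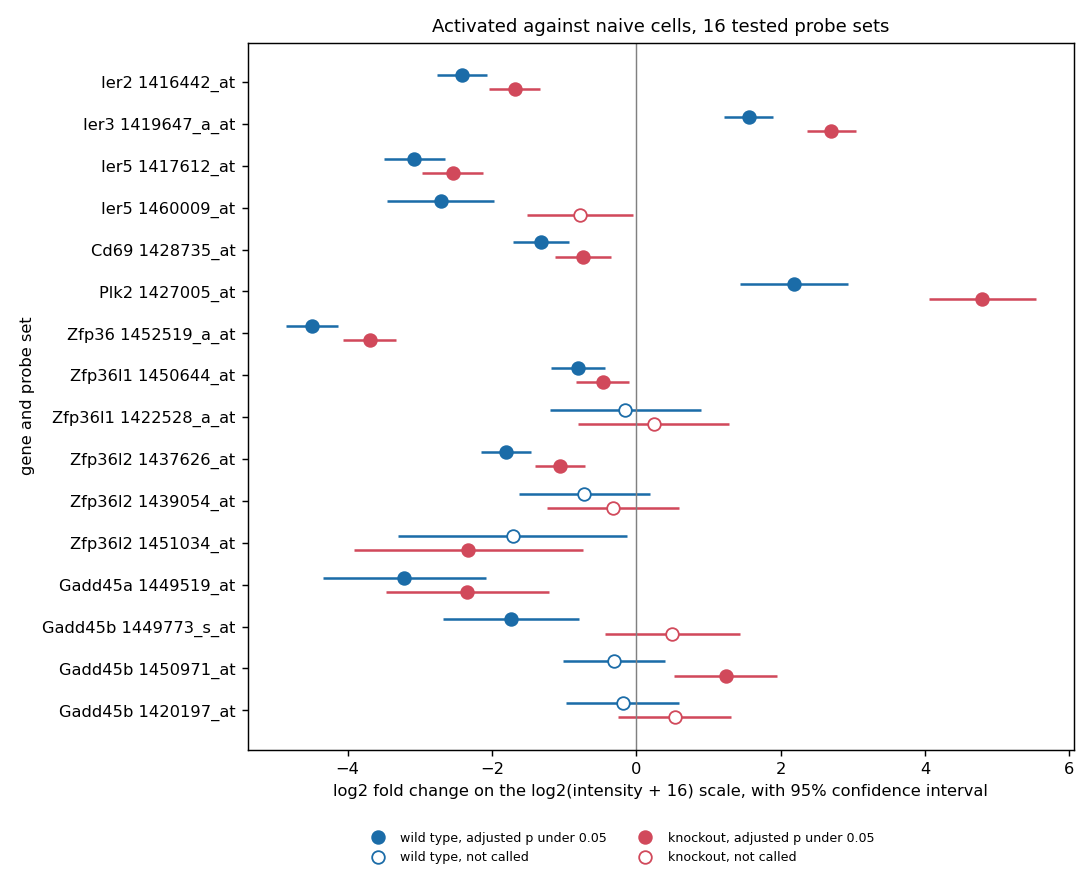
Log2 change from naive to activated cells for the 16 tested probe sets, in wild-type (blue) and Elf4-/- (red) cells, with 95% confidence intervals from limma; filled points have an adjusted p under 0.05. Ier3 and Plk2 lie above 0 in both genotypes, Zfp36 lies farthest below 0 on this scale (-4.49 and -3.69), and the brightest Gadd45b probe set is filled only in wild-type cells.

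**Figure D5:**
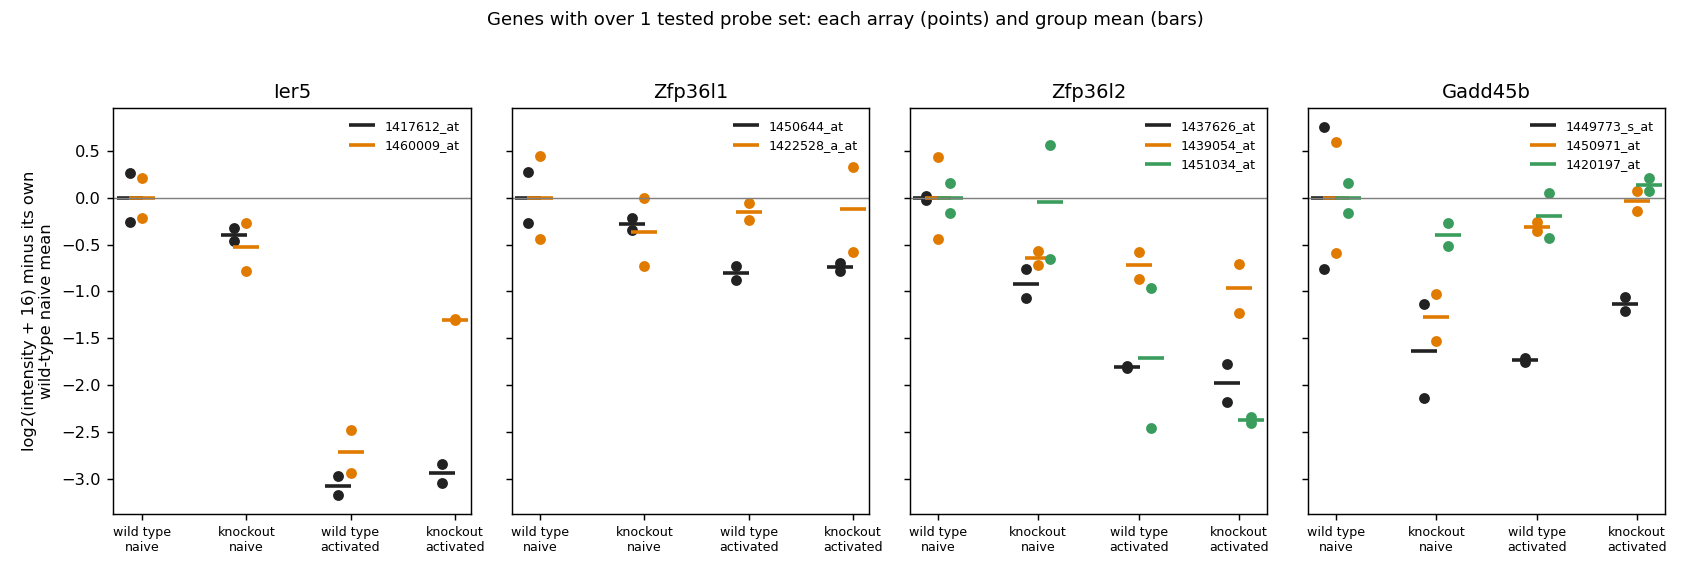
Log2(intensity + 16) of each tested probe set of Ier5, Zfp36l1, Zfp36l2 and Gadd45b, less its own wild-type naive mean, on each array (points) with group means (bars). The Ier5 probe sets part in Elf4-/- activated cells, and the brightest Gadd45b probe set (black) stays below its wild-type naive mean in activated cells while the other 2 lie near it.

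Genes that act with these members were described from lists, with 1 probe set per gene and the same limma calls. Their counts stand beside 17.4% of all tested probe sets higher and 21.8% lower with activation in wild-type cells, 18.2% and 23.5% in Elf4-/- cells, and 0.563% and 0.216% called between genotypes in naive and activated cells. For list counts at an unadjusted p under 0.05, the share of all tested was not counted. AU-rich mRNAs known as targets of the ZFP36 family (24 tested) had 0 called in naive cells (4 at an unadjusted p under 0.05), with a median log2 difference of -0.05 between genotypes. In activated cells 1 was called: Ccl3, a chemokine, at 10187 and 6756 in wild-type and 2849 and 3471 in Elf4-/- cells (log2 difference -1.40, adjusted p = 0.0464). Between states 17 of 24 rose and 0 fell in wild-type cells and 19 rose and 0 fell in Elf4-/- cells, with medians of 2.24 and 2.56. The cytokine Lif (5.93 and 6.67) and Ccl3 (5.32 and 4.79) were among them, as were the cell cycle genes Ccne2 (5.50 in wild-type) and Cdk6 (3.10 in Elf4-/- cells). Of 35 genes for mRNA decay and AU-rich binding proteins, 0 were called between genotypes in either state (unadjusted, 6 in naive and 2 in activated cells), and 10 rose and 10 fell in wild-type cells and 7 rose and 11 fell in Elf4-/- cells. The deadenylase subunit gene Pan3 changed by -2.92 and -2.36 on the log2 scale. Of 14 genes of the p38 and MK2 kinases and the 14-3-3 proteins, which act on ZFP36, 8 rose and 1 fell in wild-type and 9 rose and 1 fell in Elf4-/- cells, and 0 were called between genotypes (unadjusted, 3 and 2). The 14-3-3 gene Ywhae rose by 1.94 and 1.87 and the kinase gene Mapkapk3 by 1.46 and 1.80.

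Of 11 genes of the serum response factor axis, which drives many immediate early genes, 0 were called between genotypes (unadjusted, 1 in naive and 2 in activated cells), and 1 rose and 7 fell with activation in each genotype. The ternary complex factor gene Elk4 changed by -1.69 and -2.01, the coactivator gene Mrtfa by -1.59 and -2.39 and the kinase gene Map2k1 by 1.76 and 1.96. Of 21 genes of the p53 pathway and GADD45 partners, again 0 were called between genotypes (unadjusted, 8 and 4), and 14 rose and 4 fell in wild-type and 13 rose and 5 fell in Elf4-/- cells. The cell cycle inhibitor gene Cdkn1a rose by 7.32 and 8.75 and the p53 target Ccng1 by 1.85 and 2.43, whereas Gadd45a, also a p53 target, fell. Of 15 surface and homing partners of CD69, 0 were called between genotypes in naive cells (unadjusted, 3), and 10 rose and 5 fell in each genotype, among them the IL-2 receptor gene Il2ra (7.84 and 7.47). Klf2, which drives the exit receptor gene S1pr1, was called lower without Elf4 in activated cells (-1.10, adjusted p = 0.0464) and fell with activation (-5.67 and -6.88).

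Of 28 other early response genes, 2 were called in naive cells, both lower without Elf4 (0.249% of all tested were lower). An unadjusted limma p under 0.05 was found for 13, with no share of all tested counted at that threshold. The median of the list was -0.46, against -0.0037 over all tested. As the list was chosen with earlier results of these data known, it is no separate support for the pattern of the members. Rgs1, which encodes a regulator of G protein signalling, was at 1163 and 1866 in wild-type and 424 and 314 in Elf4-/- naive cells (-1.97, adjusted p = 0.00615). Ppp1r15a, which encodes the stress-induced phosphatase subunit GADD34, was at 5514 and 6412 in wild-type and 1436 and 954 in Elf4-/- naive cells (-2.33, adjusted p = 0.008). Neither overlapped between genotypes. In activated cells 0 of the 28 were called between genotypes (unadjusted, 6), and between states 9 rose and 13 fell in wild-type and 10 rose and 6 fell in Elf4-/- cells.

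Outside the lists, the probe sets that followed a member most closely over the 8 arrays were found by Pearson r of the log2 values, as a description, since the naive and activated arrays form separate clusters and share that step. The closest were Prkab1 for Zfp36 (0.997), Bcl10 for Zfp36l2 (0.987), Flicr for Cd69 (0.985), Ptprk for Plk2 (0.994), Jakmip1 for Ier5 (0.998), Spidr for Ier3 (0.9955) and Slc39a3 for Ier2 (0.9965). For Gadd45b the closest was Bambi, at 0.952.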

How the data were processed

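The deposited table holds 1 MAS5 intensity per probe set and array, which the authors made with MAS5 per the submitters' processing notes (version not given in the sources used here). Every array had a 2% trimmed mean of 500, so the authors had already scaled the arrays, and an equal shift of most genes would not be seen. Detection calls were not used here. Probe sets were named by the platform annotation, with symbols updated through Entrez identifiers to GRCm38.p6.

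In R 4.3.3 with limma 3.58.1, log2(intensity + 16) of the deposited values was fitted with 4 group means over all 8 arrays (lmFit, eBayes with a trend, 4 residual degrees of freedom). Log2 changes of dim probe sets are understated by the offset. The 64 controls were left out, and a probe set was tested if it reached the array median on at least 2 arrays, which kept 27348. Tests were two-sided with Benjamini-Hochberg adjustment within a contrast. The fit was tested on simulated data.

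The text names the 10 genes, up to 3 genes of each list with the smallest p among those called, and the closest probe sets by correlation. The members and the lists were chosen with earlier results of these data known. Only 2 arrays per group limit the precision. The 24 alternatives covered the offset, scaling, filter, variance model, blocks and leaving out each array, and the crossed block was chosen after seeing the data. Replicate numbers were not taken as pairs: differences between replicates correlated at -0.167 (naive, wild type with Elf4-/-) and 0.023 (activated). Between naive and activated cells of a genotype, these differences correlated at 0.069 (wild type) and -0.036 (Elf4-/-).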

Additional observations from a re-analysis of the deposited data

How the results depend on the processing

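The count of members called lower in naive cells, 5, became 0 without a trend in the variance, with the Actb ratio as a covariate or in a fit of the 4 naive arrays, 3 with array weights or a log2 minimum of 1, and 0 to 6 on leaving out 1 array. All 24 alternatives kept the direction of the 5, and calls were kept by Zfp36 in 19, Cd69 in 16, Plk2 in 14, Ier2 in 13 and Zfp36l2 in 8. The count of 1 in activated cells became 0 with centring, no trend, the Actb covariate or the replicate block, 2 with array weights (Ier5 joined) or in a fit of the 4 activated arrays (Cd69 joined), and 0 to 1 on leaving out 1 array. The 11 calls between states became 1 in wild-type and 0 in Elf4-/- cells with the Actb covariate, and 11 to 12 and 7 to 11 on leaving out 1 array, the 7 without Elf4-/- activated replicate 2. The difference between states had 0 to 3 calls on leaving out 1 array. With the Actb covariate the change in Elf4-/- cells reversed for Zfp36l1 (0.52), Zfp36l2 (0.27) and Gadd45b (-1.10 by its middle probe set); the cause was not tested. Over all probe sets, 154 calls in naive cells ranged from 3 to 235, 59 in activated cells from 6 to 734, 10714 and 11395 between states from 484 to 11039 and from 0 to 12184, and 16 for the difference from 0 to 84. Higher calls were 55.8% in naive cells and 72.7% with centring, 52.5% and 64.5% in activated cells, and 44.4% and 55.2% between states in wild-type cells. With the replicate block 4 members were called in naive cells (Zfp36l2 lost, adjusted p = 0.0639), and a crossed block gave 5 and 1. Dim probe sets (Plk2, Gadd45a, the dimmer Ier5 probe set and the lesser Zfp36l2 and Zfp36l1 probe sets among them) lie near or below the array median in at least 1 group, where precision is low.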
